A study of Homo sapiens with 3 samples.

Results

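The enzymes of glycolysis were followed through lists of ribosome peaks from cells that carried empty vector or overexpressed DDX3X, either wild-type or with the substitution G325E. The 9 genes GPI, ALDOA, TPI1, GAPDH, PGK1, PGAM1, ENO1, LDHA and LDHB were chosen by name. In all, 3760 genes had at least 1 listed peak in any library, and 8 of the 9 enzymes were among them. GPI and TPI1 were under peaks over much of their coding sequence with wild-type DDX3X, over less of it with vector and over the smallest portion with G325E. ALDOA and PGAM1 carried nearly the same peaks in all 3 libraries, GAPDH had peaks with wild-type DDX3X only, and PGK1 had none in any.

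Ribosome profiling reads the stretches of mRNA that a bound ribosome shields from nuclease digestion. HEK293T, a human embryonic kidney line that the labels class as neuronal, was transiently transfected for 24 h with empty pCDNA3.1 vector, with FLAG-tagged wild-type DDX3X or with FLAG-tagged DDX3X carrying the medulloblastoma-associated substitution G325E, and no group was depleted of endogenous DDX3X, as far as the labels and methods state. According to the labels, harringtonine, which traps initiating ribosomes, was given at 2 µg/ml for 90 s and was followed by cycloheximide, which stops elongating ribosomes, at 100 µg/ml. The methods of the study mention cycloheximide only. There was 1 library per construct, so that the spread between cultures is unknown and no test was made.

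The deposited lists gave the position, strand and annotation of each peak, that is, of each stretch where read coverage reached the authors' cut-off, with no height and no read number. They held 11219 peaks with vector, 19920 with wild-type DDX3X and 15680 with G325E. A count of 3 peaks, the limit that a count of 0 allows, was 0.0267% of the vector list, 0.0151% of the wild-type list and 0.0191% of the G325E list. Read depth is not in the lists. By the read totals in the study's supplement, after duplicates were removed, the wild-type library was the deepest and the G325E library the shallowest, and the part of this order in the results was not tested. The vector and wild-type lists skip 1952 and 3099 of the authors' peak numbers whereas the G325E list skips 0. DDX3X, the transfected gene, had 0, 31 and 8 peaks on its mRNA in the vector, wild-type and G325E libraries. Of the markers searched, 3 of 12 neuronal genes (TUBB3, NEFL and NEFM) had peaks by annotation in each library. None of the TUBB3 peaks lay on a same-strand exon of its canonical transcript, where it had 0 in each library. NEFL had 7, 8 and 12 peaks on such exons and NEFM 15, 13 and 30, with vector, wild-type DDX3X and G325E. Of the 5 fibroblast and 5 blood genes, 0 had any peak.

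Glycolysis splits glucose into pyruvate in the cytosol and yields ATP and NADH, and the lactate dehydrogenases then turn pyruvate into lactate and return NAD+. GPI and ALDOA act on the hexose stage, TPI1 and GAPDH on the triose phosphates, and PGK1, PGAM1 and ENO1 on the steps that lead to pyruvate. Proliferating cell lines make these enzymes in large amounts from abundant mRNAs. DDX3X, an RNA helicase of the DEAD-box family, takes part in translation initiation.

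The canonical start codons that lay under a peak in at least 1 library are shown first, as annotated sites at which translation of these enzymes begins. Each is given with 12 bases before and 15 after it, read along the spliced mRNA in GRCh37, with the ATG in capitals and the coordinates of the ATG. ALDOA has a pair of annotated in-frame start codons, the canonical one in exon 2 and another at codon 55 in exon 3, from which 9 annotated transcripts read a protein of 364 residues instead of 418. Only 2 annotated protein-coding transcripts start at codon 1.
GPI (chr19:34856172-34856174, plus strand): tctagtcccgccATGgccgctctcacccgg
ALDOA, codon 1 (chr16:30078219-30078221, plus strand): caaggtgaccccATGgcaaggcgcaagcca
ALDOA, codon 55 (chr16:30078576-30078578, plus strand): actaccagcaccATGccctaccaatatcca
TPI1 (chr12:6976731-6976733, plus strand): ggctccagcgccATGgcgccctccaggaag
GAPDH (chr12:6643999-6644001, plus strand): cgctcagacaccATGgggaaggtgaaggtc
PGAM1 (chr10:99186065-99186067, plus strand): cagcccgccgccATGgccgcctacaaactg
LDHB (chr12:21807603-21807605, minus strand): ctcctgtgcaaaATGgcaactcttaaggaa

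Peaks covered the canonical start codon of 5 members with vector (GPI, ALDOA, TPI1, PGAM1 and LDHB), where 36.9% of the 1782 genes with a peak on their mRNA had one there. With wild-type DDX3X the same 5 and GAPDH were covered, against 35.6% of 2706 genes. With G325E only GPI, ALDOA and PGAM1 of the 7 members with peaks were covered, against 49.7% of 2147 genes. The start codons of TPI1 and LDHB thus lay under a peak in the vector and wild-type lists and under none in the G325E list. Both start codons of ALDOA were under a peak in each of the 3 libraries. An annotated internal start of TPI1, at codon 83, lay under a wild-type peak only. ENO1, LDHA and PGK1 had no peak over a start codon in any library.

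By the annotation that each peak carries, the 9 genes received 61 peaks with vector, 112 with wild-type DDX3X and 50 with G325E. These are 54.4, 56.2 and 31.9 of every 10000 listed peaks. The annotation does not always follow the gene: peaks in exons 6 and 7 of TPI1 (3, 4 and 5 in the vector, wild-type and G325E lists) are annotated to the end of SPSB2, a gene that overlaps it on the other strand. The positions given below are therefore those of peaks whose midpoint lay in a same-strand exon of the canonical GENCODE transcript, which numbered 48, 85 and 41. Since a long stretch can be listed as 1 peak or as several, the share of coding bases under peaks is given with each count.

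**Figure D1:**
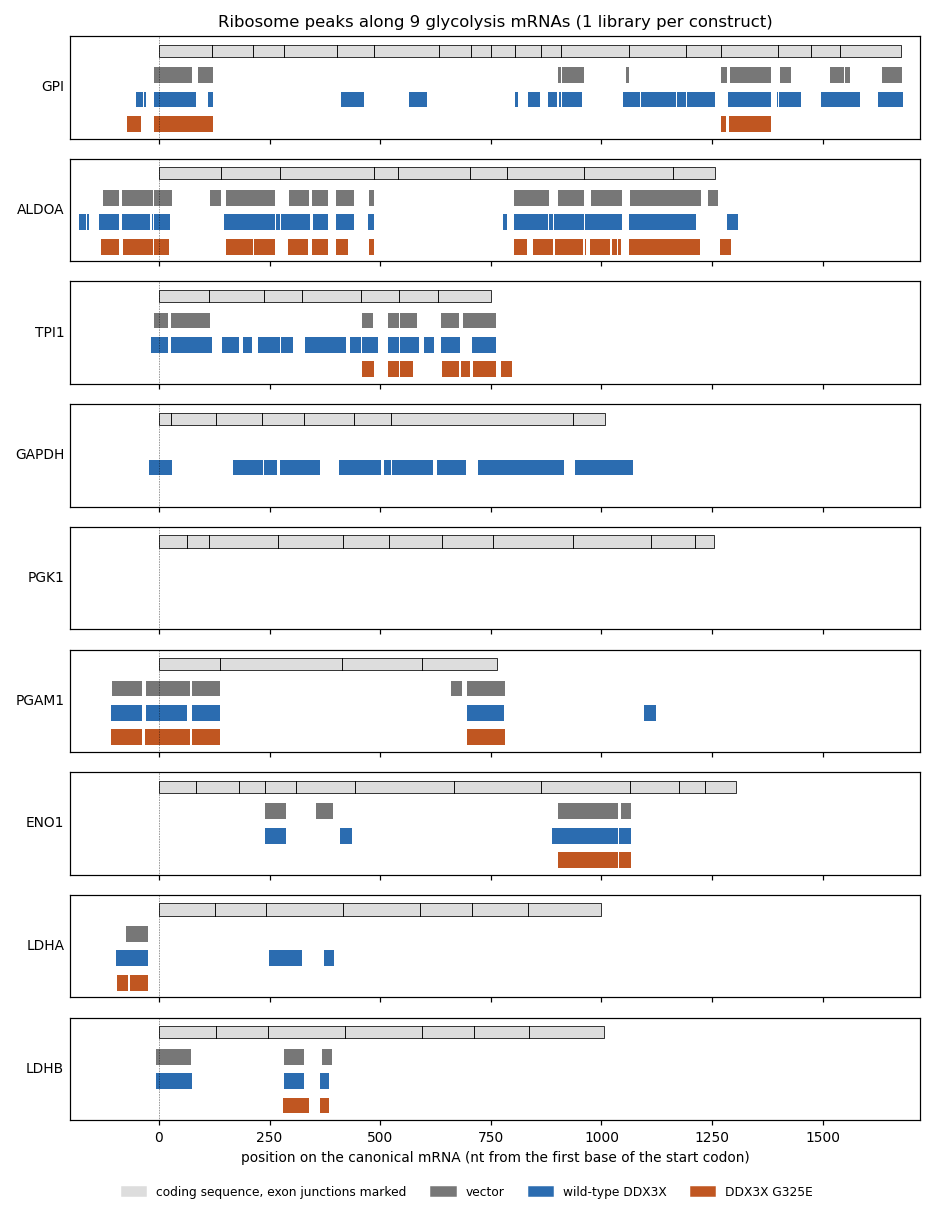
Listed peaks (coloured bars) along the canonical mRNA of each of the 9 enzymes, in nucleotides from the start codon, for the vector, wild-type DDX3X and DDX3X G325E libraries. The grey box is the coding sequence with its exon junctions. GPI and TPI1 are under peaks over 23.3% and 40.0% of the coding sequence in the vector row and 46.5% and 76.9% in the wild-type row. In the G325E row the values are 13.5% and 24.8%. The rows of ALDOA and PGAM1 look alike.

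**Figure D2:**
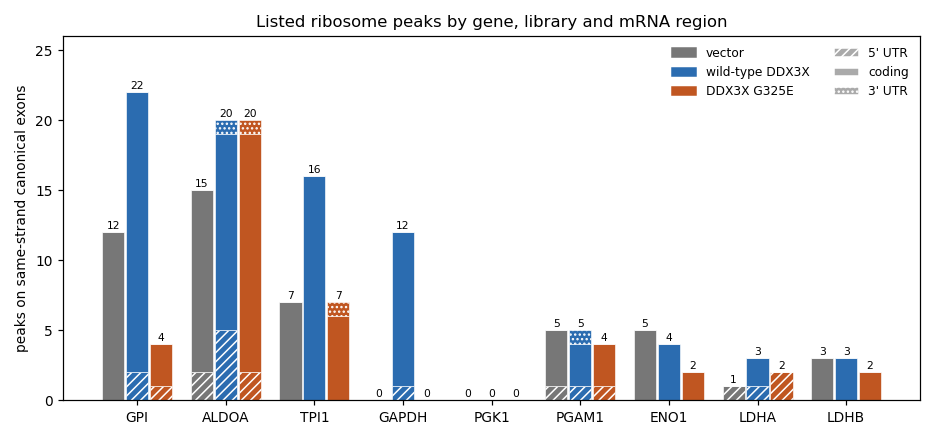
Number of peaks on the same-strand canonical exons of each enzyme by library (1 library per construct, no error bars), divided into 5′ UTR, coding and 3′ UTR. GPI had 12, 22 and 4 peaks and ALDOA 15, 20 and 20 with vector, wild-type DDX3X and G325E.

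GPI, glucose-6-phosphate isomerase, makes fructose 6-phosphate from glucose 6-phosphate (chr19:34856101-34893318, plus strand, 18 exons). It had 12 peaks with vector, all coding. It had 22 with wild-type DDX3X, 2 in the 5′ UTR and 20 coding, and 4 with G325E, 1 in the 5′ UTR and 3 coding. Peaks lay over 23.3% of its 1677 coding bases with vector, 46.5% with wild-type DDX3X and 13.5% with G325E, so that the wild-type library was highest and the G325E library lowest by both measures. The wild-type peaks touched 12 exons and the vector peaks 7, but the G325E peaks only exons 1 and 15. Exons 5 to 14 held 3, 12 and 0 coding peaks in the vector, wild-type and G325E lists, and exons 16 to 18 held 5, 4 and 0. Exons 1 and 15, where G325E peaks remained, have a GC content of 63.1% and 60.5%. Exons with wild-type but no G325E coding peaks ran from 48.7% in exon 16 to 65.6% in exon 10. Of these, exons 5, 6, 11 and 12 have 60.7%, 55.1%, 56.8% and 60.1%. Exons 13, 14, 17 and 18 have 56.2%, 57.1%, 50.7% and 52.2%.

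To show what was kept and what was absent, 30 bases from the middle of the longest coding stretch of each kind are given for GPI, all in capitals because every base lay under a peak.
GPI, under a peak in all 3 libraries (chr19:34890164-34890193, exon 15, run of 91 bases with 62.6% GC): CGACGGAGGAGGCCCGAAAGGAGCTCCAGG
GPI, under a wild-type but no G325E peak (chr19:34887258-34887287, exon 13, run of 79 bases with 62.0% GC): ACCACCAGACAGGCCCCATTGTGTGGGGGG

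ALDOA, aldolase A, cleaves fructose 1,6-bisphosphate into its triose phosphates (chr16:30077081-30081735, plus strand, 10 exons). It had 15 peaks with vector, 20 with wild-type DDX3X and 20 with G325E, of which 13, 14 and 17 were coding. Of its 1257 coding bases, 54.3%, 55.7% and 49.1% were under peaks, so the larger number of coding peaks with G325E went with a smaller covered stretch. The same exons 2, 3, 4, 8, 9 and 10 carried coding peaks in all 3 libraries, with 1 further exon, 7, in the wild-type list. Of the coding bases under a peak in any library, 76.1% were under one in all 3, and 12 of 14 wild-type coding peaks were overlapped by a G325E peak. In the 5′ UTR ALDOA had 2, 5 and 2 peaks. Its exon 2 peaks, 2, 1 and 1 in the same order, lie before codon 55. They were counted as coding here, although 9 annotated transcripts start at codon 55 and 2 at codon 1.

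TPI1, triosephosphate isomerase, interconverts the triose phosphates that aldolase releases (chr12:6976695-6980112, plus strand, 7 exons). It had 7 peaks with vector, 16 with wild-type DDX3X and 7 with G325E, all of them coding but 1 of the G325E peaks in the 3′ UTR. Peaks covered 40.0% of its 750 coding bases with vector, 76.9% with wild-type DDX3X and 24.8% with G325E. Wild-type peaks lay in every exon, vector peaks in exons 1, 5, 6 and 7, and G325E peaks in exons 5, 6 and 7, from codon 158 to codon 246. Exons 2 to 4 held 8 coding peaks with wild-type DDX3X and 0 in both other lists. The vector list skips 2 of the authors' peak numbers between its peaks on TPI1, and the G325E list skips 0. Exon 1 has the highest GC content of the 7 exons, 63.5%, and carried 2 coding peaks with vector, 2 with wild-type DDX3X and 0 with G325E. Exons 2, 3 and 4 have 53.2%, 58.8% and 53.4%, and exons 5, 6 and 7 have 55.8%, 55.7% and 56.3%.

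The stretches of TPI1 shown were chosen in the same way, the first from the last exon and the second from an exon with peaks in the wild-type list alone.
TPI1, under a peak in all 3 libraries (chr12:6979512-6979541, exon 7, run of 41 bases with 43.9% GC): CCCGAATTCGTGGACATCATCAATGCCAAA
TPI1, under a wild-type but no G325E peak (chr12:6978459-6978488, exon 4, run of 92 bases with 56.5% GC): GACTCGGAGTAATCGCCTGCATTGGGGAGA

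GAPDH, glyceraldehyde-3-phosphate dehydrogenase, oxidises the triose phosphate and makes NADH (chr12:6643683-6647537, plus strand, 9 exons). It had 0 peaks with vector, 12 with wild-type DDX3X and 0 with G325E. The wild-type peaks lay 1 over the start codon and 11 in exons 4 to 9, from codon 68 to the stop codon, and covered 74.4% of its 1008 coding bases. Of the 331 genes with at least 10 wild-type peaks on their mRNA, 17.8% had 0 with vector, 22.1% had 0 with G325E and 7.55%, or 25 genes, had 0 with both. The absence was not limited to GAPDH: no peak was listed on chromosome 12 from 2912437 to 6839602 with vector, nor from 2912408 to 6859031 with G325E, and the wild-type list held 45 and 48 peaks in these stretches. They included NCAPD2, the neighbouring condensin subunit gene, which had 0, 15 and 0 peaks. The vector list skips 2 peak numbers in its stretch and the G325E list skips 0. Of the 65 annotated GAPDH pseudogenes, none had a peak in any library. Whether ribosomes were absent from GAPDH mRNA or its reads were not called as peaks cannot be told apart here.

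PGK1, phosphoglycerate kinase 1, makes the first ATP of the pathway's second stage (chrX:77359745-77384792, plus strand, 11 exons). It had 0 peaks in all 3 libraries on either strand. The nearest listed peaks on the upstream side lay at PGAM4 in every library, and the peak-free stretch around PGK1 ran for 3151 kb in the wild-type list, 22439 kb in the vector list and 7274 kb in the G325E list.

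PGAM1, phosphoglycerate mutase 1, moves the phosphate of 3-phosphoglycerate to the neighbouring carbon (chr10:99185948-99193201, plus strand, 4 exons). It had 5 peaks with vector, 5 with wild-type DDX3X and 4 with G325E, of which 4, 3 and 3 were coding. They lay over 30.1%, 25.6% and 26.7% of its 765 coding bases, and every wild-type coding base under a peak was also under a G325E peak. All coding peaks fell in exons 1 and 4. Exons 2 and 3, codons 47 to 199, carried 0 peaks in each library.

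Codons without a peak on PGAM1 lay in part under peaks on PGAM4, an intronless copy of PGAM1 (chrX:77223446-77225135, minus strand). The coding sequences of both have 765 bases, of which 752 (98.3%) are identical. PGAM4 had 7 peaks with vector, 7 with wild-type DDX3X and 9 with G325E, and 5, 5 and 6 of them lay in the codons of PGAM1 exons 2 and 3. They covered 45.6%, 54.6% and 46.3% of the 456 coding bases of these exons. Counted over either copy, peaks covered 57.3%, 58.2% and 57.1% of the coding sequence. Of the 13 positions at which the copies differ, 4, 2 and 3 were under PGAM4 peaks. The longest stretch of PGAM4 under peaks in all 3 libraries, 57 bases, spans the junction of PGAM1 exons 2 and 3, and in the 30 bases from its middle the copies are identical. A fragment of these bases can come from either gene, and the PGAM1 and PGAM4 values are uncertain for that reason. They are shown with the bases that PGAM1 has in exon 3 in capitals.
PGAM4 (chrX:77224696-77224725, minus strand), same bases as PGAM1 codons 137 to 147: taagGATCGCAGGTATGCAGACCTCACAGA

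**Figure D3:**
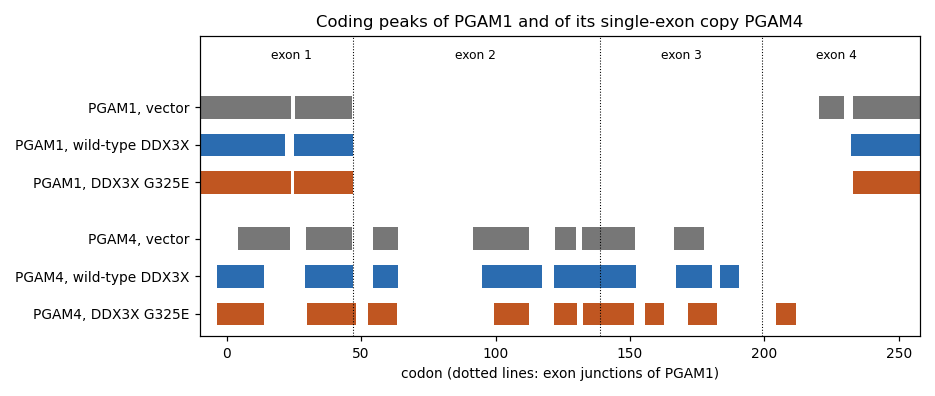
Coding peaks of PGAM1 (upper rows) and PGAM4 (lower rows) by codon in the 3 libraries, with dotted lines at the exon junctions of PGAM1 and each bar drawn at the length of the peak. PGAM1 has 0 coding peaks in exons 2 and 3 in every library, and PGAM4 has 5, 5 and 6 there.

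ENO1, enolase 1, makes phosphoenolpyruvate (chr1:8921059-8938745, minus strand, 12 exons). It had 5 peaks with vector, 4 with wild-type DDX3X and 2 with G325E, all coding. They covered 18.7%, 19.2% and 12.5% of its 1305 coding bases. The vector and wild-type peaks lay in exons 5, 6 and 9, and the G325E peaks in exon 9 alone, with midpoints at codons 324 and 352, and both other libraries had peaks over these codons. The pseudogene ENO1P1 had 2 peaks with vector, 2 with wild-type DDX3X and 0 with G325E. Exons 5 and 6, where G325E had no peak, have a GC content of 35.7% and 60.4%, against 55.0% in exon 9. In exon 6 the vector peak had 67.7% GC and the wild-type peak 54.8%. The windows shown are from the longest stretches of each kind.
ENO1, under a peak in all 3 libraries (chr1:8924033-8924062, minus strand, exon 9, run of 137 bases with 56.2% GC): GATCTCACAGTGACCAACCCAAAGAGGATC
ENO1, under a wild-type but no G325E peak (chr1:8928078-8928107, minus strand, exon 5, run of 48 bases with 39.6% GC): GTCACAGAACAAGAGAAGATTGACAAACTG

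LDHA and LDHB encode the muscle and heart subunits of lactate dehydrogenase. LDHA (chr11:18416110-18429972, plus strand, 8 exons) had 1 peak with vector and 2 with G325E, all in the 5′ UTR. With wild-type DDX3X it had 3, 1 in the 5′ UTR and 2 in exon 4 at codons 96 and 128, which covered 10.0% of its coding bases against 0 in both other libraries. LDHB (chr12:21788276-21810776, minus strand, 8 exons) had 3, 3 and 2 peaks, all coding, over 13.9%, 13.9% and 7.86% of its coding bases. The peak over the start of LDHB, in exon 2, was listed with vector and wild-type DDX3X but not with G325E, and the peaks in exon 4 were listed in all 3 libraries. Both genes have the lowest coding GC content of the members, 44.9% and 43.8%, against 50.2% to 59.0% in the others.
LDHB, under a peak in all 3 libraries (chr12:21796971-21797000, minus strand, exon 4, run of 45 bases with 55.6% GC): CAGGAGTCCGTCAGCAAGAAGGGGAGAGTC
LDHB, under a wild-type but no G325E peak (chr12:21807554-21807583, minus strand, exon 2, run of 75 bases with 41.3% GC): TCATTGCACCAGTTGCGGAAGAAGAGGCAA

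**Figure D4:**
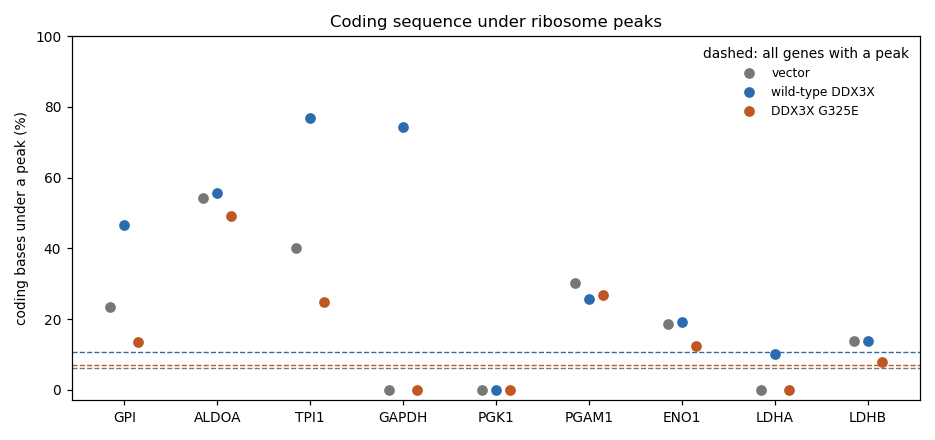
Percent of the coding bases of each enzyme under a listed peak in the vector, wild-type DDX3X and G325E libraries (1 library each, no error bars), with dashed lines for the coding bases of all 3300 genes with a peak on their mRNA (6.30%, 10.8% and 6.92%). The wild-type point stands well above the others for GPI, TPI1 and GAPDH and near them for ALDOA, PGAM1 and ENO1.

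To set the members beside one another and beside other genes, the share of coding bases under peaks was summed. It was 19.8% with vector, 34.9% with wild-type DDX3X and 14.7% with G325E over the 10020 coding bases of the 9 members, and 22.0%, 30.4% and 16.4% without GAPDH. Over 3300 genes with a peak the values were 6.30%, 10.8% and 6.92%. G325E was thus below vector for the members and above it for all genes. The members' G325E peaks fell largely where the other libraries had theirs: 93.6% of the coding bases under a G325E peak were also under a wild-type peak and 94.9% under a vector peak, against 61.0% and 49.2% over all genes. In the other direction, 39.5% of the members' wild-type bases were also under a G325E peak, or 50.3% without GAPDH, against 39% over all genes.

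Between members this last share ran from 100% for PGAM1 and 86.1% for ALDOA through 65.2% for ENO1 and 46.4% for LDHB to 28.8% for TPI1, 24.1% for GPI and 0% for LDHA and GAPDH. In the same order the coding GC contents were 56.2% for PGAM1, 59.0% for ALDOA, 53.3% for ENO1, 43.8% for LDHB, 56.5% for TPI1, 56.6% for GPI, 44.9% for LDHA and 55.3% for GAPDH. Counted as peaks, 27 of the members' 73 wild-type coding peaks (37.0%) were overlapped by a G325E peak, and 27 of 62 (43.5%) without GAPDH, against 34.7% over all genes. The overlapped peaks had a mean GC content of 59.4% ± 9.0 (SD over 27 peaks of 1 library) and the others 56.5% ± 7.7 (46 peaks), while over all genes these means were 63.8% and 55.1%. By length the overlapped peaks were the longer ones, with a median of 51 bases against 37.5, as over all genes, where the medians were 48 and 32.

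**Figure D5:**
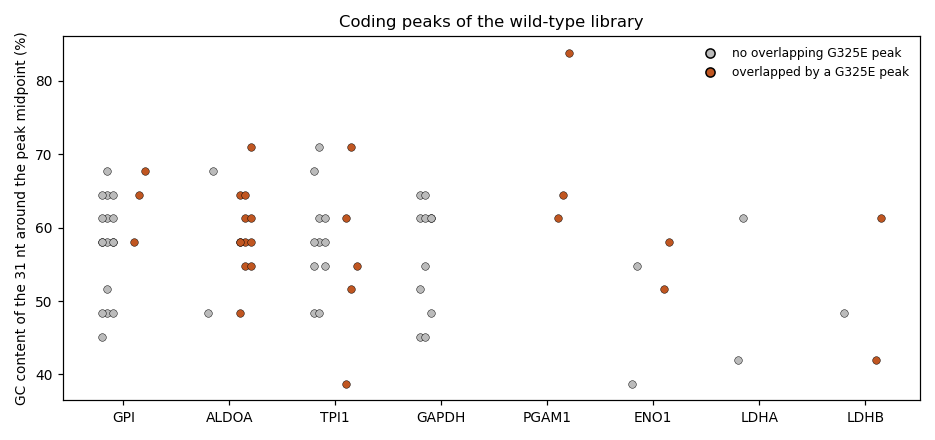
GC content of the 31 bases around the midpoint of each wild-type coding peak, by enzyme, for peaks overlapped by a G325E peak (orange) and not overlapped (grey); points are offset sideways to keep them apart. The 2 kinds overlap in GC content in TPI1 and GPI, and 12 of 14 ALDOA peaks and 3 of 3 PGAM1 peaks are orange.

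The position of peaks along the mRNA was then compared. Over the members, 5′ UTR peaks made up 8.33% of 48 peaks with vector (95% Wilson interval 3.29 to 19.6), 11.8% of 85 with wild-type DDX3X (6.52 to 20.3) and 14.6% of 41 with G325E (6.88 to 28.4). These intervals cover counting error only and overlap one another. They treat peaks as independent, although 1 stretch can be listed as several peaks and ALDOA alone gave 20 of the 41 G325E peaks. Over all genes, placed in the same way, the shares were 12%, 11.9% and 25.7%. Coding peaks made up 91.7%, 85.9% and 80.5% of the members' peaks and 85.9%, 85.8% and 72.5% of those of all genes. The members' shares and positions take codon 1 as the start of ALDOA and were not recomputed from codon 55. On a scale from 0 at the start codon to 1 at the stop codon, the members' coding peaks had a mean position of 0.546 ± 0.342 with vector (SD over 44 peaks), 0.503 ± 0.285 with wild-type DDX3X (73 peaks) and 0.570 ± 0.315 with G325E (33 peaks). For all genes the means were 0.496, 0.503 and 0.401. With G325E, 20 of the members' 33 coding peaks lay in the later 50% of the coding sequence (60.6%), against 37.8% over all genes. The members' coding peaks had a mean GC content of 58.7%, 57.6% and 59.9% in the vector, wild-type and G325E libraries, and those of all genes 58.7%, 58.1% and 66.9%.

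Peak numbers by annotation were also compared between libraries after scaling to equal list totals, for genes with at least 5 peaks in the pair of libraries and at least 1 in each. Of the 7 members compared between G325E and wild-type DDX3X, 0 were at least 2-fold higher with G325E and 2 were at least 2-fold lower, TPI1 by 4.72-fold and GPI by 2.28-fold. Of all 1684 genes compared, 19.5% were at least 2-fold higher and 10.5% at least 2-fold lower, 30% in all. ENO1 was 1.97-fold lower, LDHB 1.18-fold lower, ALDOA and LDHA had ratios of 0.998 and 1.02, and PGAM1 was 1.69-fold higher. The median ratio was 0.847 over the 7 members and 1.27 over all genes. Counted on the canonical exons, where TPI1 keeps its peaks in exons 6 and 7, GPI was 3.67-fold lower, TPI1 1.52-fold lower, ALDOA 1.5-fold higher, and 1 of 7 members passed 2-fold, with 24.3% of 1203 genes higher and 11.1% lower. GPI was thus past 2-fold lower in both counts, and TPI1 only in the count by annotation.

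Against vector, 0 of 7 members were at least 2-fold higher with G325E and 4 were lower. ENO1 was lower by 4.89-fold (2 peaks against 7) and TPI1 by 2.80-fold (2 against 4). GPI was lower by 2.52-fold (10 against 18) and LDHB by 2.10-fold (2 against 3). LDHB was 1.75-fold lower on canonical exons. Among 1316 genes 11.6% were higher and 20.7% lower, 32.3% in all, and the median ratio was 0.477 over the members and 0.805 over all. ALDOA, LDHA and PGAM1 had ratios of 0.787, 0.954 and 0.954. On canonical exons TPI1 was 1.17-fold lower, at the median ratio of all genes (0.856), and ENO1 (2.92-fold) and GPI (3.51-fold) passed, 2 of 6 members, both lower, against 16.9% lower and 8.32% higher of 962 genes. Between wild-type DDX3X and vector, 1 of 7 members passed 2-fold, ENO1 at 2.49-fold lower, against 6.34% of 1689 genes higher and 21.8% lower, 28.2% in all. On canonical exons ENO1 was 2.19-fold lower and again the only member of 6 to pass, against 6.33% of 1232 genes higher and 22.2% lower. TPI1 had a ratio of 1.69, GPI 0.907, ALDOA 0.788 and LDHA 0.939, and LDHB and PGAM1 both 0.563, with a median of 0.788 over the members and 0.704 over all genes. Scaled by the median gene instead of the list total, the single member past 2-fold in this last comparison was TPI1, higher with wild-type DDX3X. The first pair of comparisons shares the G325E library, and each shares a library with the third, so they are not independent.

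Other genes of glycolysis and its branches were counted in the same way, by annotation. In 4 fixed lists of 64 genes, 18 had a peak, and of the 9 that could be compared between G325E and wild-type DDX3X, 0 passed 2-fold either way, where 30% of all genes did. PKM, the pyruvate kinase that follows ENO1, had 9, 20 and 11 peaks with vector, wild-type DDX3X and G325E, at a scaled ratio of 0.699 to wild-type. PFKM, a phosphofructokinase subunit, had 0, 4 and 0, and the testis-type GAPDHS 0, 0 and 1. The lactate and pyruvate carrier SLC16A1 had 16, 15 and 11, and its chaperone BSG 17, 18 and 15. In the pentose phosphate branch, TKT had 5, 12 and 14 peaks, TALDO1 5, 10 and 6, PGD 2, 10 and 7, and RPIA 0, 4 and 0. Relative to vector, by annotation, PGD was 2.50-fold and TKT 2.00-fold higher with G325E and SLC16A1 2.03-fold lower. Thus 2 of 9 passed 2-fold higher and 1 lower, where 11.6% and 20.7% of all genes did. Fewer of these peaks lay on same-strand canonical exons: PGD had 2, 6 and 2 with vector, wild-type DDX3X and G325E. TKT had 2, 9 and 7 there, and SLC16A1 8, 11 and 7. PGD thus had equal numbers there with vector and G325E. In the pyruvate dehydrogenase and tricarboxylic acid cycle list, MDH2 had 23, 18 and 17 peaks, IDH3B 2, 7 and 0, SDHD 3, 3 and 3, SDHB 2, 2 and 2, SUCLG2 0, 2 and 0 and DLAT 0, 0 and 1. MPC2, a subunit of the mitochondrial pyruvate carrier, had 1, 1 and 0. Between wild-type DDX3X and vector, 1 of 10 was higher (PGD, 2.82-fold) and 1 lower (MDH2, 2.27-fold), where 6.34% and 21.8% of all genes were. On canonical exons MDH2 had 16, 15 and 14 peaks with vector, wild-type DDX3X and G325E. The folds of these lists are by annotation only.

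The split of the members' scaled peaks over the 3 libraries was 38.2% vector, 39.5% wild-type DDX3X and 22.4% G325E. It includes GAPDH, with 0, 24 and 0 peaks, and no split was made without it. Of 705 genes with at least 20 peaks, PRMT1, CLTB and HMGB2 came nearest to it, with summed absolute differences of the shares of 0.0347, 0.0404 and 0.0415. PRMT1 had 9, 16 and 8 peaks, CLTB 7, 12 and 6, and HMGB2 11, 22 and 9.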

How the data were processed

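Ribosome peaks were measured in 3 HEK293T libraries, grouped by their titles, 1 per construct. The authors trimmed adapters with cutadapt, aligned reads with BWA 0.5.5 to hg19 and transcript databases and removed duplicates. They called peaks on base coverage in each library separately and annotated them with HOMER. The study describes these steps, and a review of peaks by eye, for its other data. For ribosome profiling it refers to the same peak detection and location statistics, and does not say whether those peaks were reviewed. The study describes its ribosome profiling reads as uniquely mapped, without giving the threshold. The deposited values are peak coordinates and distances to the nearest transcription start site, with no count, height or score of reads.

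A peak was assigned to the gene of the RefSeq id in its annotation, matched through the lists (79.6% of peaks) and then through RefSeq (assembly GRCh38.p14, names only; 17.9%), else to the gene name given (2.47%). Peak midpoints were placed on GENCODE release 44 canonical transcripts lifted to GRCh37. Peaks of no length were taken as 1 base. GC content was taken in 31 bases. Genes with at least 5 peaks over a pair of libraries and 1 in each were compared after scaling to list totals, at 2-fold, with no test and no p-value because there was 1 library per construct. The ratio was tested on simulated peak numbers, with changes placed only in genes with more peaks than most members had. It does not show how the ratio performs at the low counts of those members. Members and gene lists were chosen with earlier results of these data known. All 9 members are named, and of the fixed lists those with a peak, except 1 gene that is not reported here. The 3 genes most like the members were the nearest in scaled split. The nearest-gene distances were not used. Alternatives covered scaling, assignment, thresholds, region classes, GC classes and leaving out ALDOA or GAPDH. Software was Python 3.11.15, numpy 2.4.6, scipy 1.17.1, pandas 2.3.3 and matplotlib 3.10.9.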

Additional observations from a re-analysis of the deposited data

How the results depend on the processing

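Of 112 alternative values, 81 were classed as the same within a limit, 29 as moved and 2 as reversed. For counts past 2-fold the limit was a factor of 1.5, so that 4 and 3 members were classed as the same. The cause of these shifts was not tested. The number of members past 2-fold between G325E and wild-type DDX3X (2, both lower) became 0 by the gene name column alone and 1 on canonical exons. It became 1 with RefSeq ids matched through the lists alone (an alternative chosen after seeing the data). At 1.5-fold it was 4, with 3 lower and 1 higher (PGAM1). Against vector (4 lower) it became 2 with no scaling, 2 in the 5′ UTR, exon and 3′ UTR classes, 2 by the gene name column, 2 on canonical exons and 1 with at least 10 peaks. Between wild-type DDX3X and vector (1 lower, ENO1) it became 2 in the 3 classes (ENO1 lower and TPI1 higher) and 0 by bases under peaks. At 1.5-fold it was 4, with 3 lower and 1 higher (TPI1). With median scaling or no scaling it reversed to 1 higher (TPI1). The split of all genes turned too: from 152 higher and 273 lower between G325E and vector to 203 and 153 with median scaling and 271 and 139 with none, from 329 and 177 between G325E and wild-type DDX3X to 251 and 322 with either, and from 107 and 369 between wild-type DDX3X and vector to 225 and 99 or 363 and 67.

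Among peaks of 50 to 65% GC, the coding share was 100%, 96.1% and 96.2% and the 5′ UTR share 0%, 3.92% and 0% with vector, wild-type DDX3X and G325E. By the authors' classes the G325E shares were 90.3% and 6.45%. Coding bases under peaks were 22.6%, 39.2% and 16.6% with peaks widened by 5 bases, 14.9%, 31.9% and 9.80% without ALDOA, and 22.0%, 30.4% and 16.4% without GAPDH (chosen after seeing the data). The wild-type library was highest and G325E lowest in each. Mean positions and start codon counts moved less than their limits. No paired analysis was possible because there was 1 library per construct and no result comes from a test. Peak numbers without heights limit every comparison: 0 peaks can be low coverage.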

Other observations

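Some peaks given to the members by annotation lay outside their sense exons. Peaks on the opposite strand of a member were 4 of 61 with vector (6.56%, 95% Wilson interval 2.58 to 15.7), 8 of 112 with wild-type DDX3X (7.14%, 3.66 to 13.5) and 6 of 50 with G325E (12%, 5.62 to 23.8). In the G325E library 4 of the 6 stood at the promoter of PGAM1, where both other libraries had 0 on that strand. GPI had 4 opposite-strand peaks with wild-type DDX3X and 0 in both other libraries. Off the canonical exons, peaks in introns were 4, 10 and 2 with vector, wild-type DDX3X and G325E, and peaks classed near a transcription start 9, 15 and 11. The pseudogene PGAM1P5 had 1 peak with vector, 1 with wild-type DDX3X and 0 with G325E, and of 99 pseudogenes annotated for the members only this and ENO1P1 had any.

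The 25 genes with at least 10 wild-type peaks and 0 in both other lists included, beside GAPDH and its neighbour NCAPD2, the keratin gene KRT18 (11 peaks), the topoisomerase genes TOP2A (16) and TOP2B (11), the chaperonin subunit gene CCT5 (12), the RNA-binding protein gene HNRNPF (19) and the glutathione transferase gene GSTP1 (10). These were picked after their values were seen.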
